A study of Mus musculus with 4 samples.

Results

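Hox genes were measured in MC3T3-E1 cells, a fibroblast-like preosteoblast line established from the calvaria (skull cap) of newborn C57BL/6 mice, on 4 Affymetrix whole-genome mouse expression arrays. The members were all genes whose symbol in GEO's annotation of the array is Hoxa, Hoxb, Hoxc or Hoxd and a number, without antisense or opposite-strand genes. These were 33 of the 18193 genes that had a probe set with 1 gene symbol. They were read by 48 probe sets, and 11 of the genes had more than 1. RefSeq lists 39 mouse Hox genes, and the other 6 are not analysed here.

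The cells grew for 3 or 6 days in normal medium, that is MEM α to which 10% fetal bovine serum was added. Osteogenic medium was the same with beta-glycerophosphate (10 mM) and the vitamin C derivative ascorbic acid 2-phosphate (150 µM). The series was made to find genes whose expression changes as the cells become bone-forming cells, and had 1 array for each combination of medium and day. There was no replicate in any group, so no difference between 2 arrays has an error or a test, and "higher" and "lower" below describe single arrays. All groups are 1 cell line without a genetic change, so the values describe that line and not the calvaria as a tissue.

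Hox proteins are transcription factors that bind DNA through a homeodomain, usually together with TALE-class cofactors of the MEIS and PBX families. Their genes lie in 4 clusters (a to d), and the number in a gene's name (its paralog group) follows its order along the cluster, low numbers being used towards the head and high numbers towards the tail and the ends of the limbs. The cranial neural crest that forms the front of the skull does not use Hox genes in the embryo, and the silent clusters are kept under Polycomb repression. The values below give which clusters and positions had signal in this skull-derived line.

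Signals are intensities scaled to a common 75th percentile. A signal was called above the floor if it passed 57.8, the median over all probe sets and arrays, which stands in for detection calls. Probe sets bind their targets with different strength, so signals do not order genes by expression. Each was set against the same probe set on other arrays and the floor, brightness served to choose which listed genes to name, and a sum over genes is weighted towards bright probe sets. The scaled arrays correlated with r from 0.902 to 0.911 across probe sets on the log2 scale. Of the osteoblast markers with a single-symbol probe set, 6 of 7 were above the floor on all 4 arrays, among them Col1a1, a chain of type I collagen, and the mineral-binding sialoprotein gene Ibsp; the seventh, the endopeptidase gene Phex, was above it only in osteogenic medium. Runx2, Bglap and Spp1 are not analysed here. Of the markers of other cell types, 0 of 4 adipocyte, 0 of 5 endothelial and 0 of 5 skeletal muscle genes were above the floor on all 4 arrays, against 2 of 5 chondrocyte, 2 of 5 leukocyte, 3 of 5 epithelial and 1 of 3 Schwann and neural crest genes. Over all genes 56.3% were. On at least 1 array the counts, in the same order, were 0, 1, 3, 3, 2, 4 and 2, where 68.7% of all genes were above the floor. The signal for the 5′ end of the small-subunit ribosomal RNA control was 746 on the osteogenic day 6 array and between 5202 and 9162 on the others. The gap was smaller for the middle of that RNA (409, against 784 to 994) and for its 3′ end (232, against 267 to 303). This touches every comparison with that array, and its part in the results was not tested.

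The Hoxa cluster held every Hox gene that was above the floor on all 4 arrays. These were 3 genes, Hoxa3, Hoxa5 and Hoxa10. Parts of their promoters are shown here with that of Hoxd10, a gene below the floor on all 4 arrays, to show that genes of both kinds have starts rich in the dinucleotide CpG (capitals). Each is the RefSeq sequence of build GRCm38.p6 from 250 bases before to 50 bases after the annotated start, read 5′ to 3′ on the gene's strand. Hoxa3 (minus strand, chr6:52213018-52213317), Hoxa5 (minus strand, chr6:52204538-52204837), the more 3′ of 2 starts of Hoxa10 (minus strand, chr6:52234890-52235189) and Hoxd10 (plus strand, chr2:74691641-74691940) read as follows.
Hoxa3: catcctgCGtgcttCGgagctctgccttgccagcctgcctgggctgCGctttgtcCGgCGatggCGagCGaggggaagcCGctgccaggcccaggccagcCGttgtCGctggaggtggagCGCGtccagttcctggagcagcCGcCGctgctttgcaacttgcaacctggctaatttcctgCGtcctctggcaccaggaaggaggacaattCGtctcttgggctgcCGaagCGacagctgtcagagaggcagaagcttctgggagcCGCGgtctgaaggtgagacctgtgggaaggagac
Hoxa5: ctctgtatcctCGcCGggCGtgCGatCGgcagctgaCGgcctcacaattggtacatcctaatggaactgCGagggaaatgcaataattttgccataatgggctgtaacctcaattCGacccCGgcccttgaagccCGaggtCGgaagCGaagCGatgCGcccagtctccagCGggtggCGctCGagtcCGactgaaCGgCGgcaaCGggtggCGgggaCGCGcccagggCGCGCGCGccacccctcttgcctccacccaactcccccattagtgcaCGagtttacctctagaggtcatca
Hoxa10: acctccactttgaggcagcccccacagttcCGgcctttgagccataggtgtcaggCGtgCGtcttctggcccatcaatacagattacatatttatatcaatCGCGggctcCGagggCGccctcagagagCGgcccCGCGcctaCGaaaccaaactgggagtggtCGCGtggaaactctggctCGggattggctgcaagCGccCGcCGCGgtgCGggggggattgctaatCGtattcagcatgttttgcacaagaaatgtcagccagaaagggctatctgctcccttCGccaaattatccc
Hoxd10: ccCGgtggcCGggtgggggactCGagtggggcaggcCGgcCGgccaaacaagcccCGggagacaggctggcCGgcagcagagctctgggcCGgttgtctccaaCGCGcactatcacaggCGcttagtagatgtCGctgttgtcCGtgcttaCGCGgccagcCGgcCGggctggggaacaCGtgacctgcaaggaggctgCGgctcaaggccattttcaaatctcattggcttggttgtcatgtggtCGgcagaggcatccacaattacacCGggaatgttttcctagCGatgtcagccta

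The windows above held 20 CpG for Hoxa3, 29 for Hoxa5, 21 for Hoxa10 and 22 for Hoxd10. The other Hoxa10 start had 12. Promoters were listed for 19 of the 33 members, in 21 windows of 300 bases. Their median was 15 CpG, against 7 over all 32851 promoters of the table. It was 20.5 in the 4 windows of genes above the floor on all arrays and 20 in the 11 windows of genes that were never above it, and in those 11 the count ran from 4 to 45. It was 9 in the 6 windows of genes above the floor on 1 to 3 arrays. CpG content thus overlapped between members with and without signal. The core promoter motif TATAAA, on either strand, was in 2 of the 21 windows (9.52%) against 13.6% of all promoters. TGACAG, the sequence that MEIS factors bind, was in 2 (9.52%) against 19.2%, the windows of Hoxa2 and Hoxa3. TGATNNAT, a composite site of PBX and HOX proteins, was in 3 (14.3%) against 8.85%, those of Hoxa2, Hoxb1 and Hoxd11. Each motif was scored on its own, and the Hoxa2 window held both of the last. No match says only that the letters are not in the window.

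In all, 12 of 33 Hox genes (36.4%) were above the floor on at least 1 array, where 68.7% of all genes were. On all 4 arrays it was 3 of 33 (9.09%) against 56.3% of all genes. The count was 6 on the normal day 3 array (61.8% of all genes), 9 on the osteogenic day 3 array (61.7%), 4 on the normal day 6 array (61.4%) and 7 on the osteogenic day 6 array (62.5%). In RNA from whole cultures, fewer cells with a transcript and less of it per cell cannot be told apart. By probe set, 16 of 48 passed on at least 1 array and 4 on all 4, that is 33.3% and 8.33%, against 65.2% and 51.4% of all single-symbol probe sets. With the floor at the 40th percentile, a signal of 35.6, there were 17 genes on at least 1 array (81.4% of all genes). With it at the 60th, a signal of 119.7, there were 4 (57% of all genes).

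**Figure D1:**
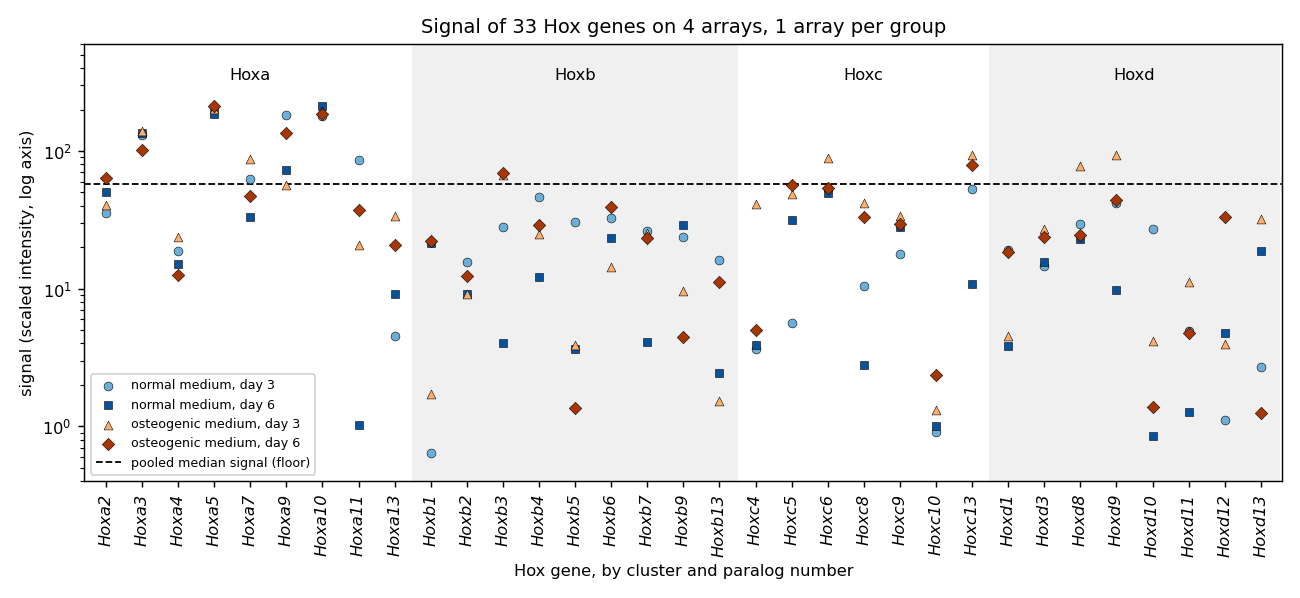
Signal (scaled intensity, log axis) of each of the 33 Hox genes on each of the 4 arrays, 1 point per array, with genes ordered by cluster and paralog number; the dashed line is the floor of 57.8. Hoxa3, Hoxa5 and Hoxa10 have all 4 points above the line, and 21 genes have all 4 below it.

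The clusters differed in these counts. Hoxa had 7 of 9 members above the floor on at least 1 array (68.7% of all genes were) and 3 on all 4 (56.3%). Its first count was thus near the share of all genes and its second below it. On at least 1 array Hoxb had 1 of 9, Hoxc 2 of 7 and Hoxd 2 of 8, and none of these 24 genes was above the floor on all 4. By probe set the counts on at least 1 array were 9 of 16 for Hoxa, 1 of 11 for Hoxb, 4 of 11 for Hoxc and 2 of 10 for Hoxd. Of all single-symbol probe sets 65.2% passed. At the 60th percentile floor the 4 remaining genes, Hoxa3, Hoxa5, Hoxa9 and Hoxa10, were all in Hoxa. At the 40th percentile floor the split was 7, 3, 5 and 2 genes. Of these, Hoxa3, Hoxa5, Hoxa9, Hoxa10 and Hoxc6 were above that floor on all 4 arrays, so 1 was outside Hoxa. No test of the difference between clusters was made, since the genes of a cluster are not replicates.

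Along the clusters, no block of positions held the signal. Above the floor on at least 1 array were 3 of 10 members in paralog groups 1 to 4, 4 of 9 in groups 5 to 8, and 5 of 14 in groups 9 to 13, with 1 gene of each block above it on all 4. Over all genes these shares were 68.7% and 56.3%. The 2 members of group 1, the 3 of group 4 and the 1 of group 12 were never above it. Groups 3 and 9 each had 2 genes above it, Hoxa3 with Hoxb3 and Hoxa9 with Hoxd9. Within Hoxa the genes with signal were not contiguous, since Hoxa4, between Hoxa3 and Hoxa5, had signals from 12.5 to 23.7.

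**Figure D2:**
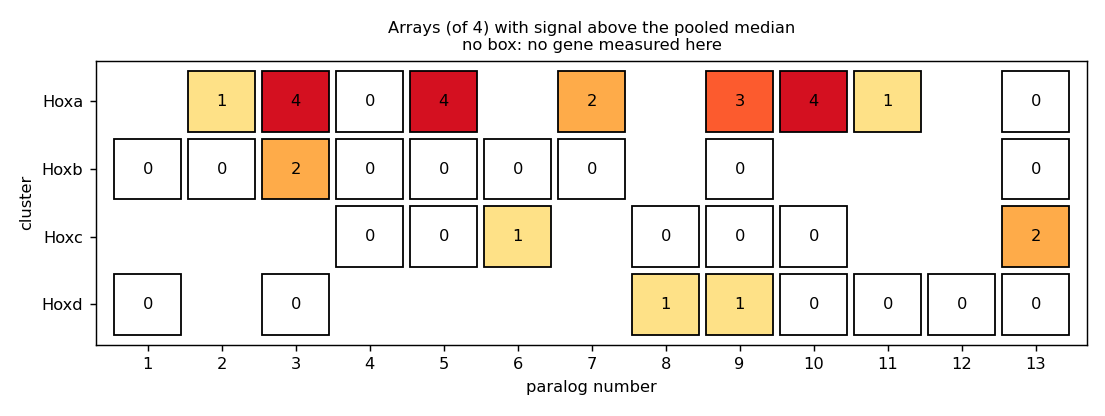
Number of the 4 arrays (0 to 4) on which each Hox gene was above the floor, by cluster (rows) and paralog number (columns); a position without a box has no gene measured here. The 3 boxes with 4 arrays are Hoxa3, Hoxa5 and Hoxa10, and 8 of 9 Hoxb boxes are at 0.

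Hoxa5, which patterns the neck and upper thorax of the skeleton and the lung, had signals of 209 at day 3 and 185 at day 6 in normal medium, and 203 and 212 in osteogenic medium. The highest and lowest array differed 1.15-fold. Its other probe set was also above the floor on all 4 arrays, with 140.0 and 109.7 in normal and 92.0 and 135.8 in osteogenic medium, so Hoxa5 was the only member with 2 probe sets above the floor throughout. The brighter of them is of the _x_at type, which by the array maker's naming may also bind other transcripts.

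Hoxa10, a gene of the lumbar spine, limb and uterus, had signals of 181 at day 3 and 214 at day 6 in normal medium, and 194 and 186 in osteogenic medium, a 1.18-fold range. Its other probe set stayed between 4.89 and 21.9, below the floor on every array. Hoxa3, needed for the hyoid, thymus and parathyroid glands, had signals of 129.8 at day 3 and 136 at day 6 in normal medium, and 140.2 and 102 in osteogenic medium. Here the osteogenic day 6 array was lowest and the range was 1.37-fold. Of its 3 other probe sets, 1 was above the floor in normal medium but not in osteogenic medium (83.8 and 96.0, against 52.6 and 42.1) and 2 were below it on every array.

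Hoxa9, a gene of the trunk and limb that is also active in blood stem cells, was the member that varied most among those above the floor on 3 or more arrays. Its signals were 183 at day 3 and 72.9 at day 6 in normal medium, and 56.5 and 135 in osteogenic medium. The normal day 3 and osteogenic day 6 arrays were high and the other 2 low, so the media did not separate. Its second probe set, between 2.26 on the osteogenic day 6 array and 56.1 on the normal day 3 array, was below the floor on all 4.

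**Figure D3:**
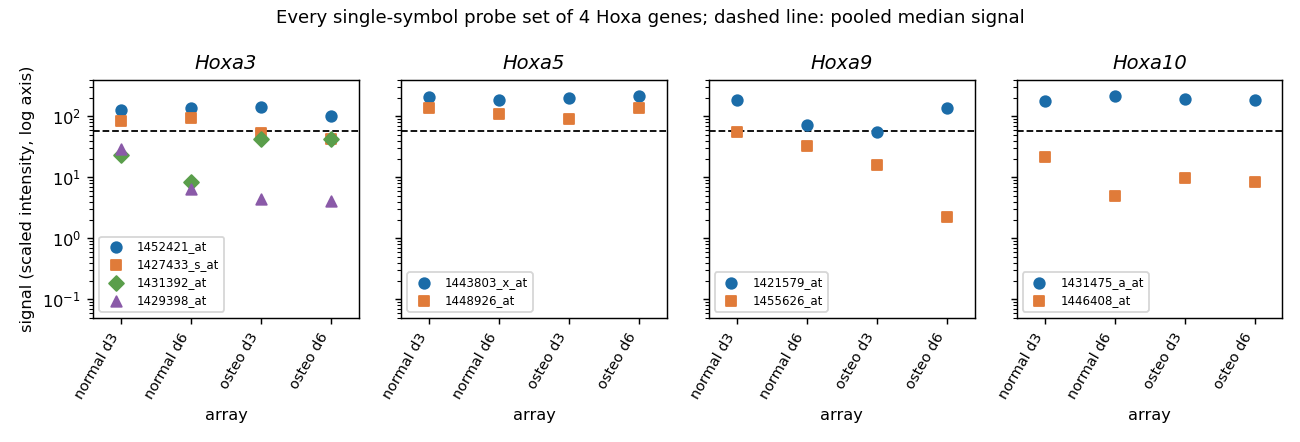
Signal (scaled intensity, log axis) of every single-symbol probe set of Hoxa3, Hoxa5, Hoxa9 and Hoxa10 on the 4 arrays; the dashed line is the floor of 57.8. Both Hoxa5 probe sets stay above the line, while 1 of 2 for Hoxa10, 1 of 2 for Hoxa9 and 2 of 4 for Hoxa3 stay below it.

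The other 3 Hoxa genes with signal crossed the floor on 1 or 2 arrays. Hoxa7 was above it on both day 3 arrays, with signals of 63.0 at day 3 and 33.3 at day 6 in normal medium, and 87.4 and 47.4 in osteogenic medium. Hoxa2, which sets the identity of the second pharyngeal arch, was at 35.6 at day 3 and 50.4 at day 6 in normal medium, and 40.3 and 63.6 in osteogenic medium, above the floor only on the last. Hoxa11, a gene of the forearm and uterus, was at 86.6 at day 3 and 1.02 at day 6 in normal medium, and 20.8 and 37.3 in osteogenic medium, above it only on the normal day 3 array. Hoxa13, the last gene of the cluster, stayed between 4.56 and 33.8.

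Outside Hoxa, 5 genes crossed the floor, and on an osteogenic array in each case. Hoxb3 was at 28.0 at day 3 and 3.999 at day 6 in normal medium, and 67.2 and 68.8 in osteogenic medium, so both osteogenic arrays were above the floor and both normal arrays below it. Its other probe set ran the other way, at 45.1 and 41.7 in normal and 10.9 and 13.9 in osteogenic medium, below the floor throughout. Hoxc13, which drives hair keratin genes and is active in nails and tail, showed the same arrangement, at 53.1 at day 3 and 10.7 at day 6 in normal medium, and 93.1 and 78.7 in osteogenic medium. Epithelial marker signal was also lower on both normal than on both osteogenic arrays: summed over 5 genes it was 471.1 and 271.5 in normal and 729.4 and 1016 in osteogenic medium at days 3 and 6. Of the 5, Cdh1 and Krt14 were higher in osteogenic medium on both days and Epcam was not. Krt8 was at 86.1 in normal and 85.3 in osteogenic medium at day 3 and below the floor at day 6, and Krt5 was below it throughout. The part of such signal in the Hox values was not tested. Hoxc6 had signals of 52.8 at day 3 and 49.2 at day 6 in normal medium, and 88.5 and 53.5 in osteogenic medium. Its other 2 probe sets were above the floor on the osteogenic day 6 array instead, at 76.9 and 69.2. Hoxd8 was at 29.4 at day 3 and 22.9 at day 6 in normal medium, and 77.4 and 24.4 in osteogenic medium, and Hoxd9, a gene of the limb bud and lumbar region, at 41.6 at day 3 and 9.85 at day 6 in normal medium, and 94.2 and 43.9 in osteogenic medium. Both were thus above the floor only on the osteogenic day 3 array, and the highest of these signals, that of Hoxd9, was 94.2. The other Hoxd8 probe set ran the other way, at 33.5 and 36.0 in normal and 20.9 and 5.72 in osteogenic medium. It was below the floor on every array.

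The other 21 members were below the floor on all 4 arrays. They were Hoxa4 and Hoxa13; Hoxb1, Hoxb2, Hoxb4, Hoxb5, Hoxb6, Hoxb7, Hoxb9 and Hoxb13; Hoxc4, Hoxc5, Hoxc8, Hoxc9 and Hoxc10; and Hoxd1, Hoxd3, Hoxd10, Hoxd11, Hoxd12 and Hoxd13. Their signals ran from 0.638 to 56.9 with a median of 13.5, and the highest, just under the floor, was that of Hoxc5 on the osteogenic day 6 array. The ratio of a gene's highest to its lowest array had a median of 7.40 in these genes, 3.38 in the 9 genes above the floor on 1 to 3 arrays, and 1.18 in the 3 genes above it on all 4. A signal under the floor does not show that a gene is silent.

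For the difference between media, values below the floor were set to it, so a gene at the floor on 1 array has only a bound. At day 3, 11 Hox genes were measured, that is above the floor on at least 1 of the 2 arrays. None was 2-fold higher in osteogenic medium (1.99% of all genes were) and 1 was 2-fold lower (1.59%). That gene was Hoxa9, at least 3.16-fold lower, with 183 in normal and 56.5, just under the floor, in osteogenic medium. These counts turned with the floor. At the 60th percentile Hoxa9 was at -0.61 on the log2 scale and no member passed 2-fold. At the 40th percentile 4 did: Hoxd8 (1.12) and Hoxd9 (1.18) were 2-fold higher, and Hoxa11 (-1.28) and Hoxa9 (-1.69) 2-fold lower. With a pseudocount in place of the floor 3 did, Hoxd8 (1.04) higher and Hoxa9 (-1.46) and Hoxa11 (-1.48) lower. Hoxa5 (log2 difference -0.041), Hoxa10 (0.10) and Hoxa3 (0.11) had nearly the same signal on both arrays, and Hoxa7 was at 0.47. The median over the 11 was 0.22, with 8 above and 3 below zero, where that of all 11861 measured genes was 0.0092. For 5 of the 8, Hoxb3, Hoxc6, Hoxc13, Hoxd8 and Hoxd9, the normal array was at the floor, so they could only lie above zero. Hoxa9 and Hoxa11, with the osteogenic array at the floor, could only lie below it. The median and the counts of signs thus follow in part from the floor and do not measure a shift between media.

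At day 6, 7 Hox genes were measured, and none was 2-fold higher (4.18% of all genes) or 2-fold lower (2.78%). Hoxa9 was at 0.89 on the log2 scale, 1.86-fold higher in osteogenic medium and so opposite to day 3. Hoxa3 was at -0.41, Hoxa10 at -0.20 and Hoxa5 at 0.20. Hoxb3, Hoxc13 and Hoxa2 were at the floor in normal medium, with bounds of 0.25, 0.44 and 0.14. The median over the 7 was 0.20, with 5 above zero, against 0.013 over all 11901 genes. Hoxb3, Hoxc13 and Hoxa2 could only lie above zero, so this median and count do not measure a shift between media. With the 40th percentile floor Hoxc13 passed 2-fold (1.14), and with the pseudocount Hoxc13 (1.83) and Hoxb3 (2.08) did.

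**Figure D4:**
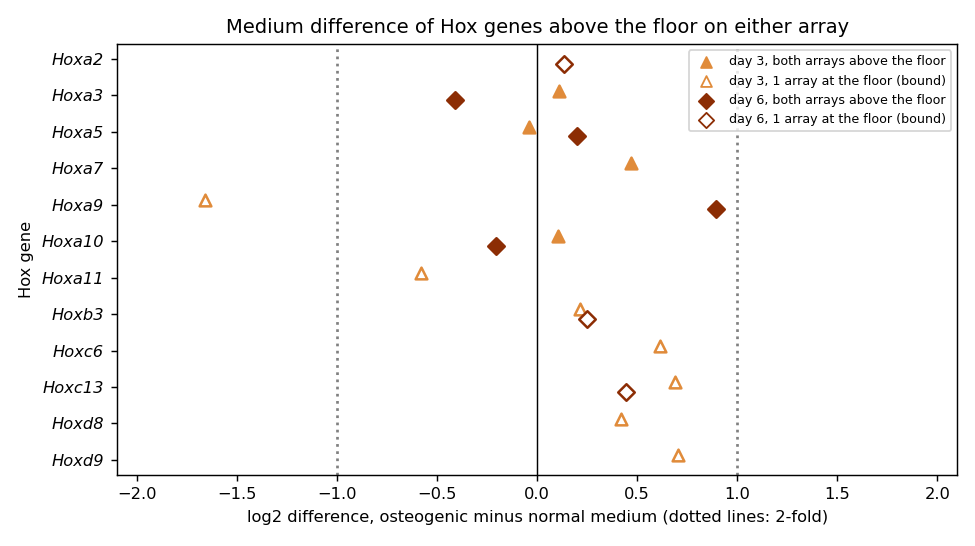
Difference of log2 signal between osteogenic and normal medium for the 12 Hox genes above the floor on at least 1 array, at day 3 (triangles) and day 6 (diamonds); open symbols are bounds, with 1 array at the floor, and dotted lines mark 2-fold. Hoxa9 lies at -1.66 at day 3 and at 0.89 at day 6, and every other symbol lies inside the dotted lines.

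The spread of such differences over genes was taken for scale. Among all genes with a mean signal between 1 and 2 times the floor, the range in which Hoxa9 lies, the day 3 medium difference had an SD over genes of 0.57 (log2) and 8.38% were past 2-fold, and between the normal medium arrays of days 3 and 6 it was 0.51 and 5.16%. Between 2 and 4 times the floor, where Hoxa3, Hoxa5 and Hoxa10 lie, the SDs were 0.64 and 0.49. At day 3, 6 members lay in these ranges, with Hoxa9 at -1.66. The SDs are spreads over different genes, with any effect of medium or day and values set to the floor included. They are not the error of 1 gene and give no test of Hoxa9.

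Over the days, 6 members were measured in normal medium. None was 2-fold higher at day 6 (0.741% of all genes), and Hoxa9 was 2-fold lower, by 2.51-fold (0.741%). In osteogenic medium 11 were measured. Hoxa9 was at least 2.34-fold higher at day 6, the 1 gene past 2-fold (3.7% of all genes), and none was 2-fold lower (2.62%). The medium difference itself moved between days by more than 2-fold upwards for Hoxa9 alone of 12, by 2.55 on the log2 scale (4.42% of all genes), and downwards for none (3%). These comparisons share arrays, and those of Hoxa9 all use its signal of 183 or of 56.5 at day 3. At the 60th percentile floor Hoxa9 was within 2-fold in both media, at -0.61 in normal and 0.18 in osteogenic medium, and with the mean of its probe sets it was at 0.25 in osteogenic medium. At the 40th percentile floor Hoxa11 (-1.28) was also 2-fold lower at day 6 in normal medium, and Hoxd8 (-1.12) and Hoxd9 (-1.10) in osteogenic medium.

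Both osteogenic arrays were above both normal arrays, with values under the floor set to it, for 2 of 12 members (21.7% of all 12503 genes above the floor on at least 1 array), and below both for none (20.4%). The 2 were Hoxb3 and Hoxc13. Both days were then tested together with limma, with terms for medium and for day, which leaves 1 residual degree of freedom. After Benjamini-Hochberg adjustment 0 of 12503 genes passed 5%, with a lowest adjusted p of 0.104. At an unadjusted p under 0.05 there were 1737 genes (13.9%), and 848 with each gene's own variance. No p is given for Hoxb3 or Hoxc13, since both normal values of each were the floor itself. For the day, 0 genes passed, 919 (7.35%) had an unadjusted p under 0.05 in limma and 607 with their own variance.

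Of 8 genes of TALE cofactors with a probe set, 7 were above the floor on all 4 arrays (56.3% of all genes were), and Pbx4 was never above it. Meis2, a MEIS factor of the head mesenchyme and limb, had signals of 1013 at day 3 and 1128 at day 6 in normal medium, and 946 and 1191 in osteogenic medium. Pbx2 was at 1169 at day 3 and 1326 at day 6 in normal medium, and 1197 and 1219 in osteogenic medium. Pbx3 was at 2652 at day 3 and 2794 at day 6 in normal medium, and 1981 and 1475 in osteogenic medium, lower in osteogenic medium on both days (log2 -0.42 and -0.92) but within 2-fold. No TALE gene passed 2-fold between media, and their median difference was -0.30 at day 3 and -0.23 at day 6. Of all genes 1.99% were 2-fold higher and 1.59% lower at day 3, and 4.18% and 2.78% at day 6.

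RNA of genes for complexes that silence or open the Hox clusters was measured too, not the complexes themselves. Of 25 Polycomb genes, whose complexes place repressive marks on histones H3 and H2A, 23 were above the floor on all 4 arrays and 0 passed 2-fold between media, with medians of -0.042 and -0.056. The 3 with the brightest probe sets were Rbbp7, Rbbp4 and Cbx6. Cbx6, a reader of the repressive mark, was at 4932 at day 3 and 5309 at day 6 in normal medium, and 3888 and 3485 in osteogenic medium. All 12 genes of the trithorax and demethylase list, only part of which counters Polycomb, were above the floor on all 4 arrays and 0 passed 2-fold. The 3 brightest were Dpy30, Ash2l and the insulator gene Ctcf, and the medians were -0.038 and -0.044. Ctcf was at 2251 at day 3 and 1950 at day 6 in normal medium, and 1905 and 1781 in osteogenic medium. Over all genes 56.3% were above the floor on all 4 arrays. Between media 1.99% were 2-fold higher and 1.59% lower at day 3, and 4.18% and 2.78% at day 6. For lists of this size, 0 past 2-fold is near these shares.

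Retinoic acid induces Hox genes from the low-numbered end in the embryo. Of 14 genes of its pathway 10 were above the floor on all 4 arrays, and 3 passed 2-fold between media, all at day 6 in this scaling, 1 higher and 2 lower. Over all genes 56.3% were above the floor on all 4 arrays, and at day 6 4.18% were 2-fold higher and 2.78% 2-fold lower. Dhrs3, a reductase that limits retinoic acid formation, was 4.05-fold higher in osteogenic medium at day 6, with signals of 125 at day 3 and 116 at day 6 in normal medium, and 121 and 470.0 in osteogenic medium. Aldh1a1, a retinaldehyde dehydrogenase, was 2.79-fold lower on that day. Cyp26b1, which degrades retinoic acid, was 2.62-fold lower at day 6 and had a difference of the opposite sign at day 3, at 489 at day 3 and 705 at day 6 in normal medium, and 974 and 269 in osteogenic medium. Its log2 difference at day 3 was 0.995, and 1.02 after a shift to a common median. The binding protein genes Crabp1 and Crabp2 and the dehydrogenase gene Aldh1a3 had the brightest probe sets of this list. Of 6 Cdx and ParaHox genes, upstream regulators and relatives of Hox genes, none was above the floor on any array.

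Of the genes that flank the clusters, 7 of 9 were above the floor on all 4 arrays (56.3% of all genes were) and 0 passed 2-fold between media. Of all genes 1.99% were 2-fold higher and 1.59% lower at day 3, and 4.18% and 2.78% at day 6. Hibadh, near Hoxa, was at 3901 at day 3 and 4355 at day 6 in normal medium, and 3782 and 4078 in osteogenic medium. Cbx5 and Mtx2 were the other 2 with the brightest probe sets. Evx1, the homeobox gene beyond Hoxa13, was never above the floor, while Evx2, beyond Hoxd13, was above it on all 4 arrays, at 72.9 at day 3 and 106 at day 6 in normal medium, and 108 and 79.9 in osteogenic medium. The 3 noncoding genes inside the clusters with a probe set, Hoxa11os, Hoxb5os and Hoxd3os1, were never above the floor.

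Patterning genes of the head were counted in the same way. Of 25 skull and head genes 17 were above the floor on all 4 arrays (68.0%), near the 56.3% of all genes. Of 12 limb and trunk identity genes 3 were. At day 3, 2 skull genes were 2-fold higher and 2 lower, where 1.99% and 1.59% of all genes were. At day 6, 1 skull and 1 limb gene were 2-fold higher, where 4.18% of all genes were. Prrx1, a homeobox gene of the head and limb mesenchyme, was at 9435 at day 3 and 11224 at day 6 in normal medium, and 10942 and 9922 in osteogenic medium, and Prrx2 was also among the brightest. Dlx3, a homeobox gene of bone and skin, was 2.76-fold higher in osteogenic medium at day 3 and 2.90-fold at day 6. En1, a homeobox gene of the skull vault, was 2.30-fold lower at day 3 and 1.59-fold lower at day 6, with signals of 668 at day 3 and 699.8 at day 6 in normal medium, and 291 and 440.5 in osteogenic medium. Alx4, a homeobox gene needed for closure of the skull vault, was at least 2.28-fold lower at day 3, with signals of 132 at day 3 and 58.1 at day 6 in normal medium, and 23.1 and 37.8 in osteogenic medium. Dlx4 was at least 2.01-fold higher at day 3 and passed 2-fold in the scaling used here and after quantile normalization, but not as deposited or after a shift to a common median. Of the limb and trunk genes Shox2, Tbx15 and Tbx18 were above the floor throughout. Meox1, a homeobox gene of the somites, was at least 6.85-fold higher in osteogenic medium at day 6, at 79.7 at day 3 and 11.7 at day 6 in normal medium, and 122 and 396 in osteogenic medium. The forelimb and hindlimb genes Tbx5, Tbx4 and Pitx1 were never above it.

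**Figure D5:**
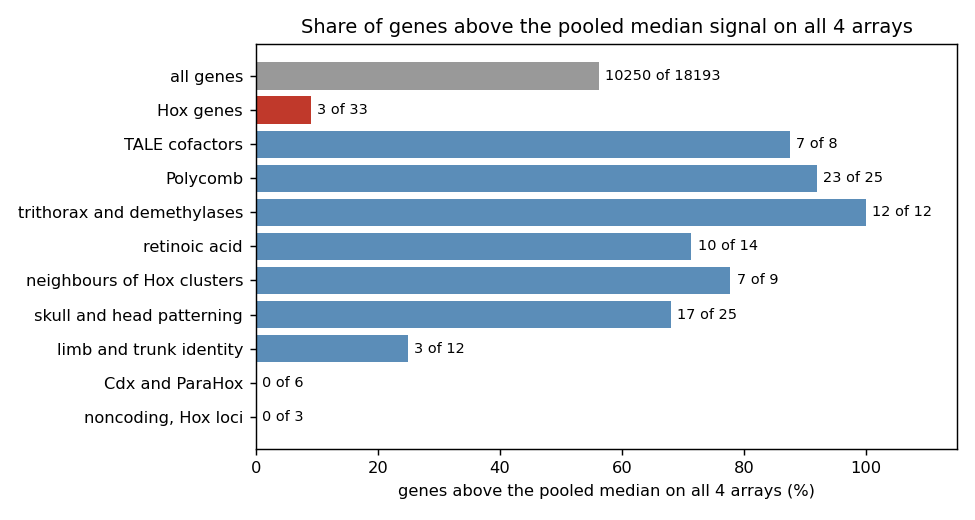
Share (%) of genes above the floor on all 4 arrays, with the count beside each bar, for all genes, the Hox genes and 9 lists of related genes. The Hox bar is at 9.09%, below the 56.3% of all genes and below the bars of the TALE, Polycomb, trithorax, retinoic acid, neighbour, skull and limb lists.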

How the data were processed

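Per the labels' protocols, total RNA with on-column DNase treatment was checked on a Bioanalyzer and labelled with a 3′ in vitro transcription kit. The authors deposited linear intensity values, 1 for each probe set on each array; their mean without the lowest and highest 2% of probe sets is 500.0 on each array, so the arrays had been scaled. The summary software, detection calls and genome build were not stated in the labels or file header. Of 45101 probe sets 64 were controls, 34945 had 1 symbol, 932 several and 9160 none here; only the first were used. Each array was scaled to a common 75th percentile (factors 0.988 to 1.02), values under the pooled 50th percentile were set to that floor, and log2 was taken. The probe set with the highest mean stood for a gene. Called means 2-fold. The additive fit used limma 3.58.1 (lmFit, eBayes) in R 4.3.3 across all genes. A check on simulated data covered its mean estimates and is no support for the absence of calls. The members and lists were chosen with earlier results of these data known. From each list were named genes past 2-fold between media and the 3 with the brightest probe sets, at most 6; Pbx4, Evx1, Evx2, Phex, Tbx4, Tbx5 and Pitx1 were added after their values were seen. Alternatives were other scalings, lower and higher floors (40th, 60th percentile), a pseudocount of 16 and other probe set choices. Promoter sequences are RefSeq's, GRCm38.p6. With 4 arrays and no replicates, precision is limited by their number, and scaling removes any difference in total RNA.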

Additional observations from a re-analysis of the deposited data

Results flagged for a closer look

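Hoxa9 was lower in osteogenic medium at day 3 and higher at day 6, so that its log2 difference between media moved by 2.55 between days. With 1 array per group this difference was not tested. It rests on 1 probe set, since the second, below the floor throughout, was lower in osteogenic medium on both days. A probe set that the annotation assigns to both Hoxd4 and Hoxd3 entered no gene value. Its signal was 75.1 on the osteogenic day 3 array, above the floor, and 4.32 on the normal day 3 array, 15.7 on the normal day 6 array and 47.3 on the osteogenic day 6 array.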

How the results depend on the processing

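Quantile normalization, the values as deposited and arrays shifted to one median left every count of Hox genes above the floor and of Hox genes past 2-fold as it was. The floor and the choice of probe set moved them, through their own construction, since they decide which signals count. A 40th percentile floor left 10, 14 and 13 Hox genes above it on the normal day 3, osteogenic day 3 and osteogenic day 6 arrays, and 5 on all 4 (60.4% of all genes). With it at the 60th percentile, 3 were above it on each osteogenic array and 4 on at least 1 array (57% of all genes). With the second brightest probe set (or the only one), 4 were above it on each osteogenic array, 2 on the normal day 6 array and 1, Hoxa5, on all 4 (46.5% of all genes). The counts past 2-fold, in the order medium at day 3, medium at day 6, day in normal medium, day in osteogenic medium and change of the medium difference, were 4, 1, 2, 3 and 3 with the 40th percentile floor, and 3, 2, 2, 2 and 4 with a pseudocount in place of the floor. They were 0 in all 5 with the second brightest probe set and with the 60th percentile floor, and with the mean of probe sets 0 for day in osteogenic medium. The additive limma fit called 0 genes for medium and for day in each setting, filters and own variances included. No paired analysis was possible because the labels number no replicates; the term for day in the limma fit does compare media within each day. Signals near the floor limit every Hox value outside Hoxa5 and Hoxa10. Those 2 genes stayed above it on all 4 arrays at the 60th percentile floor and with the mean of probe sets. Hoxa3 did not in either setting. Hoxa10 rests on 1 probe set, since its other one was below the floor on every array. With the second brightest probe set Hoxa10 was therefore above the floor on no array.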
